A study of Mus musculus with 13 samples.

Results

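The actin cytoskeleton and its attachment sites were described here through 42 genes in mouse retinal cells made to express Ikzf1. The genes encode actins, filament-binding proteins, non-muscle myosin II, crosslinkers, focal adhesion proteins, membrane linkers, lamin A/C (Lmna) and the transcription factor SRF. They were listed by symbol, partly because Vcl, Flnc and Lmna were known to be strongly lower with Ikzf1, so the contrast of Ikzf1 against control is a description for them: calls from the fit over all genes are given only as labels, and no p-value of theirs is used as evidence. All 42 were found among the 35734 genes of the authors' deposited table, and all 42 were among the 15585 genes tested. RNA-seq was made from 4 control and 4 Ikzf1 libraries. Retinas of CD1 mice at postnatal day 0 were dissociated, transfected, cultured for 9 h and sorted for green fluorescent protein. The control cells carried GFP and the Ikzf1 cells an Ikzf1-IRES-GFP construct, with 400000 sorted cells per control library and 300000 per Ikzf1 library, so cell input and treatment cannot be told apart. All groups shared the strain, age, transfection, culture and sort, the promoter of the construct is not given in the sources used here, and the number of animals behind a library is not stated. Each replicate is labelled a biological one.

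Ikaros, the product of Ikzf1, is a transcription factor with zinc fingers that early retinal progenitors express. Actin filaments are built from actin monomers with the help of profilin and cofilin, coated by tropomyosins and calponins, bundled by alpha-actinins and filamins, and pulled by non-muscle myosin II. At focal adhesions, talin and vinculin couple the filaments to integrins, while paxillin, zyxin and LIM-domain proteins gather around them. When monomeric actin is used up, the MRTF cofactors are freed and act with SRF at the CArG box, a short DNA element found before many cytoskeletal genes. In the retina the actin network shapes the elongated progenitors, their apical junctions and the movement of their nuclei.

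The CArG box was looked for in RefSeq promoters (GRCm38.p6), windows of 250 bases before to 50 bases after an annotated start of a gene. Such windows, 46 in all, were found for 38 of the 42 genes, and not for Actb, Pxn, Tagln and Tln2. Only exact matches to CCWWWWWWGG, W being A or T, were counted, so a box with any other base was scored as absent. The Acta2 window, scored in this way, holds the near match ccctatatgg. The windows with a box are shown because SRF, itself among the 42, acts at this element. Binding of SRF to them was not measured here. Each sequence below runs 5′ to 3′ on the gene's strand, with 20 bases on each side of the box, and capitals mark the box.
Actg1, chr11:120348556-120348605, minus strand: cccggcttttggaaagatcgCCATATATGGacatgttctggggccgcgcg
Cnn2, chr10:79988524-79988573, plus strand: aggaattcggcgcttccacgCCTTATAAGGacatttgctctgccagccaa
Filip1l, chr16:57549160-57549209, plus strand: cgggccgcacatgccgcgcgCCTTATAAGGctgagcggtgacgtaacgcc
Lima1, chr15:99820167-99820216, minus strand: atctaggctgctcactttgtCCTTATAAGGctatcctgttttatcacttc
Myl6, chr10:128493030-128493079, minus strand: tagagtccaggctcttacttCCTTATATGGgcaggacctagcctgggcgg
Myl9, chr2:156775283-156775332, plus strand: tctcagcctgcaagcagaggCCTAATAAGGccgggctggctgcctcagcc
Srf, chr17:46556195-46556264, minus strand: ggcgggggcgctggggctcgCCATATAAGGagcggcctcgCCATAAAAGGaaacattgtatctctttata
Vcl, chr14:20929151-20929200, plus strand: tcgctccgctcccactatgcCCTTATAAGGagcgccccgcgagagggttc
The Srf window held 2 boxes, 82 and 62 bases before the start, and the Vcl box lay 227 bases before it. Filip1l and Myl6 had 2 windows each, and only 1 of them held a box. The windows with a box of Filip1l, Myl6 and Lima1 lie inside the gene's listed span, at starts other than its outer end. A box was present in 8 of the 38 genes (21.1%), against 1.63% of all 32851 promoters of the table and 1.81% of its 27025 genes. Calls are defined below. Of the 8, 5 were called lower with Ikzf1 (Cnn2, Filip1l, Myl6, Srf and Vcl), Srf with overlapping groups. Myl9 was called higher, and Actg1 and Lima1 were not called. Over all tested genes the shares called lower and higher were 30.0% and 29.4%. The median log2 fold change of the 8 was −0.28, against −0.64 in the 30 genes without a box. These are descriptions of genes chosen with the contrast known.

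Other short motifs were searched on both strands of the same windows. TGGGAA, the core bound by Ikaros, was present in 11 of the 38 genes (28.9%) and in 28.3% of all genes of the table. GGAATG, the core bound by TEAD factors, was present in 13 of the 38 (34.2%) and in 16.6% of all genes. TGANTCA, bound by AP-1, was present in 6 of the 38 (15.8%) and in 8.97% of all genes. The Ikaros core and the TEAD core share the letters GGAA and can overlap. A match describes these letters in this window and is not a measured binding site.

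The libraries held 21.4 to 30.5 M estimated read pairs. Ikzf1 itself (ENSMUSG00000018654) accounted for 15.9 to 17.2% of all reads where it was transfected and for 0.00724 to 0.00911% in the controls, as labelled. Levels below are CPM, reads scaled to a common library size, with library sizes adjusted by TMM, which corrects for that share. The first principal component separated the groups and held 66.6% of the variance. A gene is called lower or higher when its adjusted p in edgeR's quasi-likelihood test over all 15585 genes was under 0.05, and 59.4% of all tested genes were called, 30.0% lower and 29.4% higher. The progenitor markers were detected (10 of 10 tested), with a summed level of 1560 to 1720 CPM in the controls and 1290 to 1330 CPM with Ikzf1, 7 of them called lower and Pax6 called higher. In these bulk samples, fewer cells of a type and less RNA per cell cannot be told apart.

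Of the 42 genes, 29 were called lower, 6 higher and 7 were not called. This is 83.3% called beside 59.4% of all genes, and since the list was chosen with the contrast known, nothing is read from that. The median log2 fold change was −0.52, beside 0.00 for all tested genes. The decrease was at least 1 on the log2 scale for 10 genes, namely Cnn2, Vcl, Ahnak2, Lmna, Flnc, Ahnak, Cttnbp2nl, Actn1, Pdlim7 and Zyx, and the increase was at least 1 for Tpm2 alone. Of all tested genes, 6.42% were called and lower by at least 1, and 4.89% were called and higher by at least 1. All Ikzf1 libraries lay below all control libraries for 27 genes and above them for 5, while the groups overlapped for 10. Groups of all tested genes did not overlap in 53.2%. The summed level of the 42 genes was 13630 ± 373 CPM in the controls and 10390 ± 118 CPM with Ikzf1 (SD, n = 4 each). Leaving out Actb and Actg1, the sum over 40 genes was 8411 ± 257 CPM in the controls and 5066 ± 27.5 CPM with Ikzf1 (SD, n = 4 each).

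**Figure D1:**
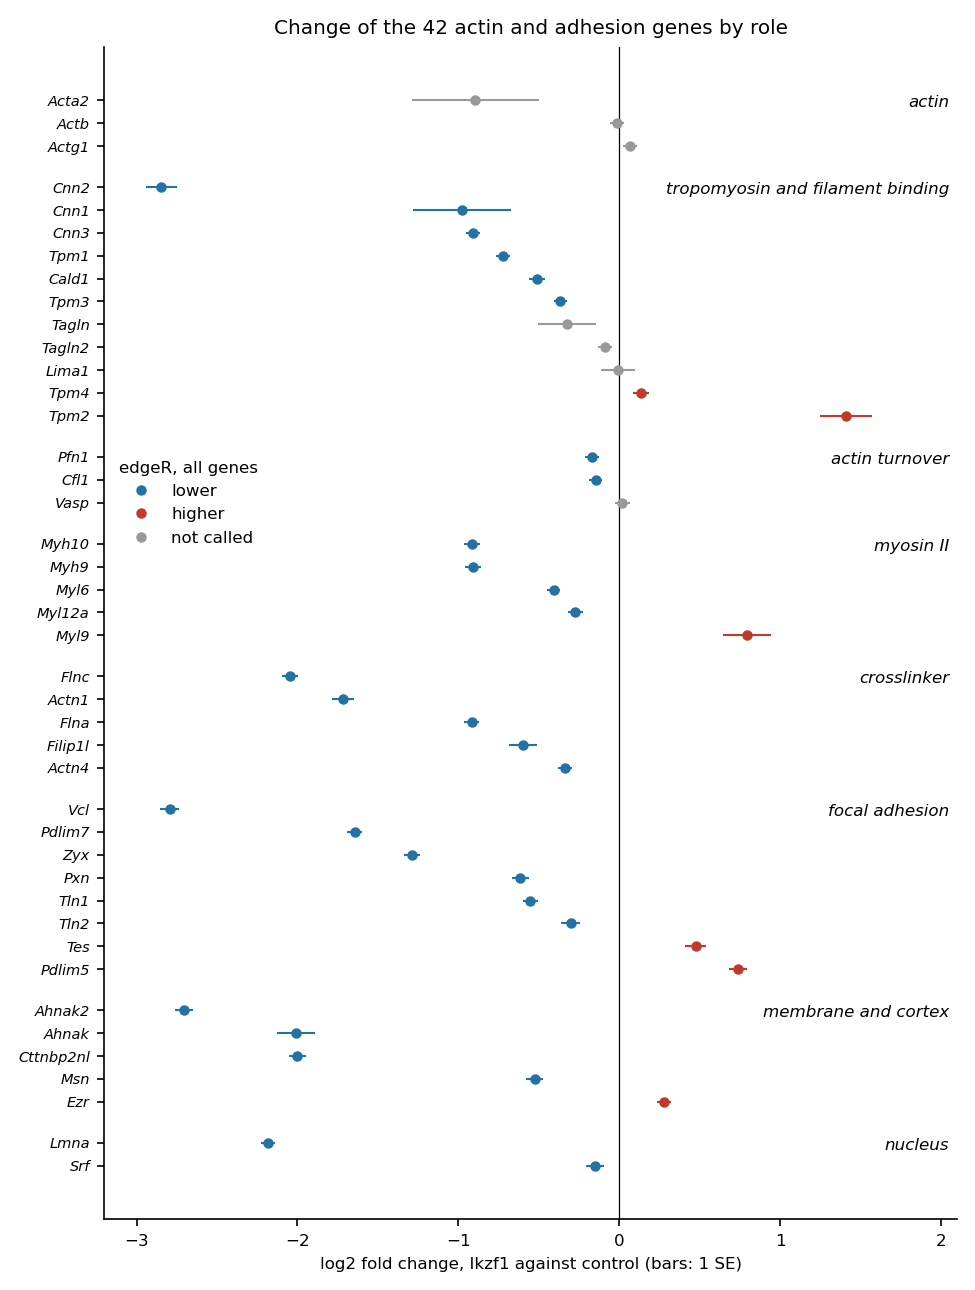
Log2 fold change of Ikzf1 against control for the 42 genes, grouped by role; points are estimates, bars 1 SE, and colours give the call over all tested genes. The actins sit near 0 apart from the scarce Acta2, while Cnn2, Vcl, Ahnak2, Lmna, Flnc, Ahnak and Cttnbp2nl sit near or beyond a 4-fold decrease.

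The cytoplasmic actins, which form the bulk of non-muscle filaments, overlapped between the groups. Actb, beta-actin, stood at 2520, 2538, 2433 and 2664 CPM in the controls and at 2510, 2546, 2485 and 2507 CPM with Ikzf1. Actg1, gamma-actin, stood at 2669, 2728, 2592 and 2743 CPM in the controls and at 2790, 2806, 2948 and 2693 CPM with Ikzf1. The groups overlapped for both genes, with log2 fold changes of −0.02 ± 0.04 and 0.07 ± 0.04 (SE). Acta2, the smooth muscle actin, was scarce, at 0.435 to 1.19 CPM in the controls and 0.317 to 0.831 CPM with Ikzf1, with 8 to 32 reads per library. At that depth its log2 fold change of −0.89 ± 0.40 was not called, and reads of the near-identical actins may have been split between them.

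Of 11 filament-binding genes, 6 were called lower and 2 higher, beside 30.0% and 29.4% of all tested genes. The tropomyosins went both ways. Tpm1, a tropomyosin that stabilises filaments, stood at 156, 158, 166 and 150.2 CPM in the controls and at 94.7, 92.5, 97.0 and 97.6 CPM with Ikzf1. Its sister Tpm2 went the other way, from 3.05, 2.31, 1.92 and 3.53 CPM to 7.07, 7.75, 6.45 and 7.62 CPM. Neither pair of groups overlapped, and the log2 fold changes were −0.72 ± 0.04 for Tpm1 and 1.41 ± 0.16 for Tpm2 (SE). Tpm3 was lower by a smaller amount, 129 to 135 CPM against 98.9 to 107 CPM, and Tpm4 was at 291 ± 12.1 CPM in the controls and 320.5 ± 23.7 CPM with Ikzf1 (SD, n = 4 each), with overlapping groups. It was called higher, at 0.14 ± 0.05 on the log2 scale (SE), in 10 of 14 alternative analyses. Cnn2, a calponin of non-muscle cells, stood at 26.1, 22.9, 27.0 and 26.6 CPM in the controls and at 3.64, 3.46, 3.94 and 3.25 CPM with Ikzf1. Every Ikzf1 library was far below every control, a 7.18-fold lower mean and the lowest log2 fold change of the 42 genes, −2.85 ± 0.10 (SE). Cnn3, the acidic calponin, was lower as well, 368 ± 7.17 CPM against 196 ± 9.03 CPM (SD, n = 4 each). Cnn1, the smooth muscle calponin, was at 0.529 to 2.18 CPM in all libraries, and its groups overlapped although it was called lower, at −0.98 ± 0.31 on the log2 scale (SE). With an offset for transcript length its log2 fold change was −0.61 and not called, and the authors' deposited table gives −0.33. Cald1, caldesmon, which holds myosin off the filament, was lower by 0.51 ± 0.05 on the log2 scale (SE). The transgelins Tagln and Tagln2, which bind and bundle filaments, and Lima1, which slows their disassembly, were not called, at 3.94 against 3.13 CPM, 276 against 259 CPM and 8.36 against 8.32 CPM. A gene on the opposite strand, Pcsk7, holds 1370% of the signal of Tagln in the authors' deposited table, and whether the counting used strand is not stated.

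Genes of filament turnover were close between the groups. Cfl1, cofilin, which severs old filaments, was at 702 ± 14.7 CPM in the controls and 634 ± 10.3 CPM with Ikzf1, and Pfn1, profilin, which loads monomers, at 244 ± 8.79 and 217 ± 10.2 CPM (SD, n = 4 each). Neither overlapped, with log2 fold changes of −0.15 and −0.17. Vasp, which lengthens filaments at their tips, was at 121 ± 5.02 and 123 ± 5.69 CPM (SD, n = 4 each), with overlapping groups.

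Non-muscle myosin II pulls filaments against each other. Myh9, the heavy chain of myosin IIA, stood at 217, 251, 221 and 249 CPM in the controls and at 125, 121, 127 and 127 CPM with Ikzf1. Myh10, the heavy chain of myosin IIB, stood at 225, 236, 248 and 255 CPM in the controls and at 135, 122, 122 and 132 CPM with Ikzf1. The heavy chains were lower to nearly the same degree, by 0.91 ± 0.05 and 0.92 ± 0.05 on the log2 scale (SE), and no Ikzf1 library reached a control. Among the light chains, Myl6 was lower, 405 ± 5.85 against 306 ± 12.7 CPM, and Myl12a was lower, 110.0 ± 2.62 against 91.1 ± 5.96 CPM (SD, n = 4 each). Myl12a shares a strand with Gm49909, which holds 123% of its signal, so its reads are uncertain. Myl9, the smooth muscle regulatory light chain, was higher, from 4.19, 3.44, 2.97 and 5.33 CPM in the controls to 6.90, 6.83, 6.65 and 7.34 CPM with Ikzf1. Its Ikzf1 libraries lay above all controls.

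**Figure D2:**
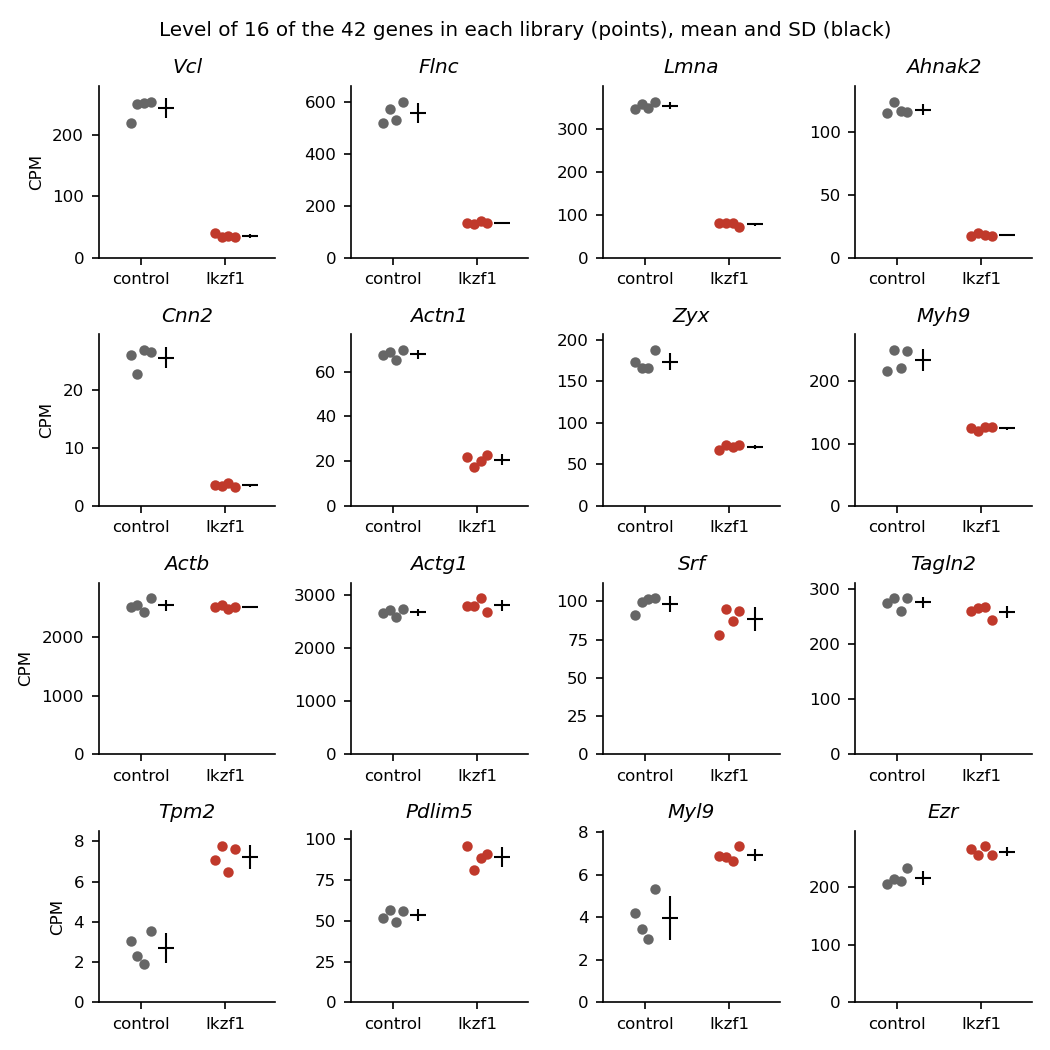
CPM (linear axis from 0) in each of the 4 control and 4 Ikzf1 libraries for 16 of the 42 genes, with mean and SD in black. The upper rows show groups far apart, the third row shows overlapping groups for Actb, Actg1, Srf and Tagln2, and the lowest row shows Tpm2, Pdlim5, Myl9 and Ezr higher with Ikzf1.

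All 5 genes grouped here as crosslinkers were called lower, beside 30.0% of all tested genes. Nothing is read from that, since they were chosen with the contrast known. Flnc, filamin C, a large actin crosslinker best known from muscle (chr6:29433256-29461883), stood at 519, 574, 532 and 601 CPM in the controls and at 134, 130.3, 140.3 and 134 CPM with Ikzf1. Its controls were 4.13 times as high on average, with a log2 fold change of −2.05 ± 0.05 (SE). Flna, filamin A, the broadly expressed form, stood at 1053, 1123, 1085 and 1135 CPM in the controls and at 584, 557, 561 and 629 CPM with Ikzf1. Both filamins separated the groups, and Flna changed less, by −0.92 ± 0.05 on the log2 scale (SE). Actn1, an alpha-actinin of stress fibres and adhesions, stood at 67.5, 69.0, 65.1 and 69.8 CPM in the controls and at 21.9, 17.3, 20.2 and 22.9 CPM with Ikzf1. Its paralog Actn4 was lower by only 0.34 ± 0.04 on the log2 scale (SE), 298 ± 14.4 against 236 ± 7.83 CPM (SD, n = 4 each). Filip1l, a relative of a filamin-interacting protein, was at 23.1 ± 2.56 against 15.2 ± 1.29 CPM (SD, n = 4 each), and the opposite-strand gene Cmss1 holds 69.0% of its signal.

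Of 8 focal adhesion genes, 6 were called lower and 2 higher, beside 30.0% and 29.4% of all tested genes. Vcl, vinculin, which reinforces the talin-actin link (chr14:20929398-21033676), stood at 219.9, 251, 252 and 254 CPM in the controls and at 39.4, 33.7, 34.8 and 33.0 CPM with Ikzf1. The controls were 6.93 times as high on average, with a log2 fold change of −2.79 ± 0.06 (SE) and a wide gap between the groups. Ap3m1, on the opposite strand at the Vcl locus, holds 54.4% of the Vcl signal as a mean over all 8 libraries. Its own level was 74.0 ± 4.05 CPM in the controls and 74.1 ± 5.03 CPM with Ikzf1 (SD, n = 4 each). That is below the Vcl mean of 244 CPM in the controls and above its mean of 35.2 CPM with Ikzf1. Whether reads of Ap3m1 were counted to Vcl was not tested. Pdlim7, a LIM-domain protein of stress fibres, stood at 149.9, 139, 151 and 146 CPM in the controls and at 44.4, 49.7, 46.6 and 46.7 CPM with Ikzf1. Zyx, zyxin, which repairs strained filaments, stood at 173, 166, 166 and 188 CPM in the controls and at 67.1, 72.9, 70.6 and 73.3 CPM with Ikzf1. Neither gene's groups overlapped, and the log2 fold changes were −1.64 ± 0.05 and −1.29 ± 0.05 (SE). Pxn, the scaffold paxillin, was lower by 0.61 ± 0.05, and the integrin-binding talins Tln1 and Tln2 by 0.55 ± 0.05 and 0.30 ± 0.06 on the log2 scale (SE). Creb3, opposite Tln1, holds 32.7% of its signal and was itself lower. Against this, Pdlim5, a second PDZ-LIM protein, stood at 51.7, 56.8, 49.2 and 56.0 CPM in the controls and at 95.7, 81.3, 88.4 and 90.9 CPM with Ikzf1. Tes, testin, a zyxin-binding LIM protein, was at 20.8 ± 0.884 CPM in the controls and 28.9 ± 1.20 CPM with Ikzf1 (SD, n = 4 each). All Ikzf1 libraries were above all controls for Pdlim5 and for Tes.

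At the membrane and cortex, 4 of 5 genes were called lower and 1 higher, beside 30.0% and 29.4% of all tested genes. Ahnak, Ahnak2 and Cttnbp2nl were lower by about 2 or more on the log2 scale, while 6.42% of all tested genes were called and lower by at least 1. Nothing is read from these counts, since the genes were chosen with the contrast known. Ahnak, a giant scaffold under the plasma membrane, stood at 565, 760.2, 790.4 and 688 CPM in the controls and at 165, 169, 195 and 169 CPM with Ikzf1. Ahnak2, its relative, stood at 115, 124, 116 and 115 CPM in the controls and at 16.9, 19.4, 18.4 and 17.4 CPM with Ikzf1. Ahnak varied more between the controls (SD 100.2 around 701 CPM) than Ahnak2 (SD 4.31 around 118 CPM), yet neither pair of groups overlapped. Their log2 fold changes were −2.01 ± 0.12 and −2.71 ± 0.06 (SE). Cttnbp2nl, a relative of the cortactin-binding protein Cttnbp2, stood at 161, 178, 175 and 181 CPM in the controls and at 46.3, 41.96, 44.5 and 40.9 CPM with Ikzf1. Msn and Ezr encode moesin and ezrin, which tether filaments to membrane proteins, and they went opposite ways. Msn stood at 318, 334, 310.3 and 349 CPM in the controls and at 255, 206, 231 and 219 CPM with Ikzf1, whereas Ezr rose from 205, 214, 210.3 and 232 CPM to 266, 254, 270.2 and 255 CPM. The log2 fold changes were −0.53 ± 0.06 and 0.28 ± 0.04 (SE), with no overlap for either.

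In the nucleus, Lmna, which encodes the A-type lamins of the nuclear envelope (chr3:88480147-88509956, minus strand), stood at 347, 358, 348 and 364 CPM in the controls and at 79.7, 79.6, 79.9 and 72.3 CPM with Ikzf1. The controls were 4.54 times as high on average, a log2 fold change of −2.18 ± 0.05 (SE), with little spread in either group. Srf, by contrast, stood at 90.9, 99.4, 101 and 102 CPM in the controls and at 78.3, 95.3, 87.5 and 93.5 CPM with Ikzf1. Its groups overlapped, and its call at −0.15 ± 0.06 on the log2 scale (SE) was made in 9 of 14 alternative analyses, with −0.07 under the offset for transcript length.

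**Figure D3:**
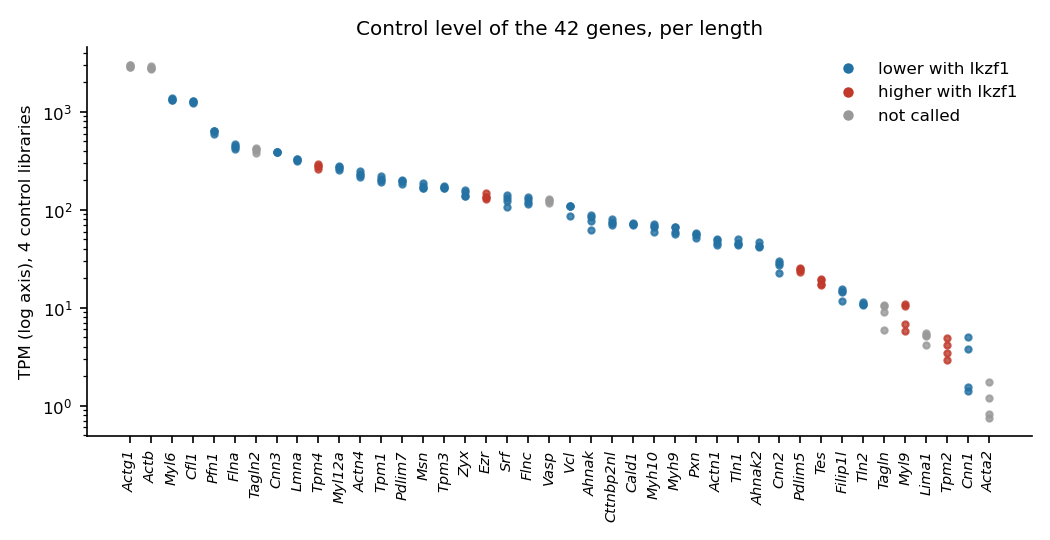
TPM (log axis) of each of the 42 genes in the 4 control libraries, in order of the mean, coloured by the call with Ikzf1. Genes called lower occur from Myl6 near the top to Cnn1 near the bottom.

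The control level, which played no part in choosing the genes, was compared per length as TPM, which divides reads by transcript length. Actg1 at 2950 ± 80.5 TPM and Actb at 2838 ± 92.7 TPM were highest and their ranges overlapped (SD, n = 4 each). They were followed, each apart from the next, by Myl6 at 1336 TPM, Cfl1 at 1276 TPM and Pfn1 at 628 TPM. Then came Flna at 442 TPM, Tagln2 at 407 TPM and Cnn3 at 389 TPM. The range of Tagln2 overlapped both Flna and Cnn3, while Flna and Cnn3 were apart. Lmna was ninth at 325 ± 7.74 TPM (SD, n = 4), apart from its neighbours. Vcl at 103 TPM overlapped Ahnak at 77.7 TPM but not Vasp at 124 TPM. Flnc at 125 TPM overlapped its neighbours Srf and Vasp. The lowest were the muscle-type genes Tpm2 at 3.86 TPM, Cnn1 at 2.96 TPM and Acta2 at 1.13 TPM. The range of Cnn1 overlapped both others, while Tpm2 and Acta2 were apart. Across the 42 genes the fold change had a Spearman correlation of 0.0374 with the control TPM and of −0.389 with the effective transcript length, while over 15583 tested genes the latter was 0.00149. These are descriptions across genes of the same libraries. The 7 genes with an effective length of at least 5 kb (Ahnak, Ahnak2, Flnc, Myh9, Myh10, Tln1 and Tln2) had a median log2 fold change of −0.92, against −0.37 for the other 35.

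Paralogs changed unequally, and the make-up of several families differed between the groups. Shares below are of the summed TPM of the family's genes among the 42. Tpm4 made up 42.2% ± 0.929 of the tropomyosins in the controls and 54.2% ± 2.53 with Ikzf1 (SD, n = 4 each). Tpm1 made up 29.6 to 32.1% of them in the controls and 21.5 to 24.1% with Ikzf1. Actn1 made up 16.8 to 17.3% of the alpha-actinins in the controls and 5.71 to 8.18% with Ikzf1. Flnc made up 22.1% ± 1.30 of the filamins Flna and Flnc in the controls and 12.3% ± 1.35 with Ikzf1 (SD, n = 4 each). Pdlim5 stood at 10.5 to 12.3% of the pair in the controls and 33.6 to 39.0% with Ikzf1. Ezr held 43.4 to 44.8% of the ezrin and moesin pair in the controls and 55.8 to 60.1% with Ikzf1. For Myh9 against Myh10 the shares overlapped, with Myh9 at 47.2 to 49.9% and 46.4 to 50.8%, and so did the talin shares.

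**Figure D4:**
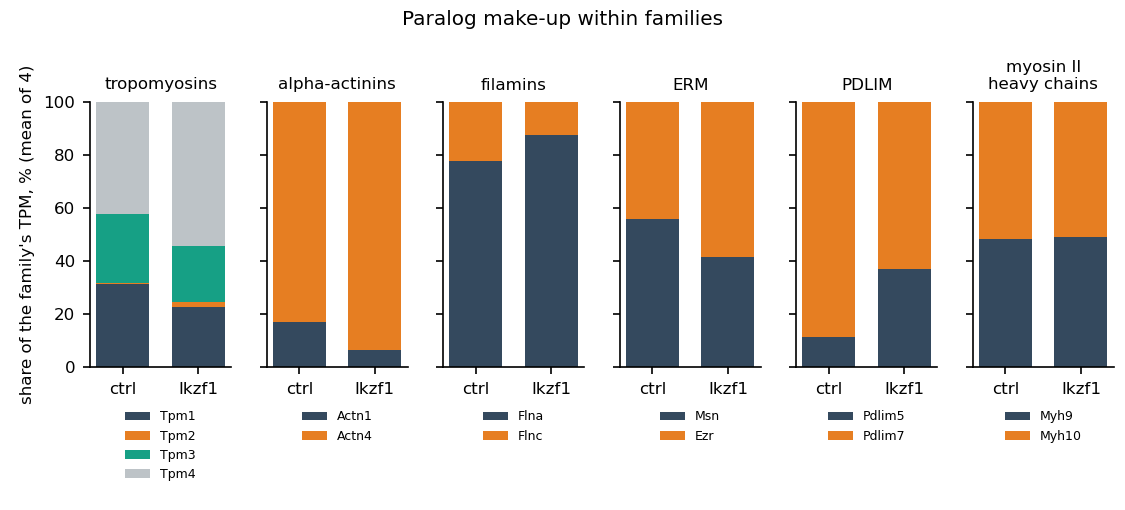
Mean share of each paralog in the summed TPM of its family's genes among the 42 (n = 4 libraries per bar). Pdlim5, Ezr, Tpm4, Actn4 and Flna hold larger shares with Ikzf1, and Myh9 and Myh10 hold like shares in both groups.

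Transcripts within a gene were followed by their share of the gene's TPM. The leading transcript was the same in both groups for 39 of the 42 genes, and it held at least 90% of the control TPM in 10 genes and under 50% in 8. The exceptions were Tpm1, Pdlim7 and the scarce Cnn1. For Pdlim7, a transcript of 1697 bases led in the controls, at 37.9% ± 1.48, and stood at 28.9% ± 2.77 with Ikzf1 (SD, n = 4 each), while one of 1006 bases stood at 21.3 to 30.8% and 41.3 to 48.3%. For Tpm1, a transcript of 1742 bases held 18.5% ± 1.63 in the controls and 3.58% ± 5.19 with Ikzf1 (SD, n = 4 each), and one of 1714 bases held 9.5 to 13.6% and 19.0 to 31.8%. For Cnn2, a transcript of 926 bases held 24.3 to 38.4% in the controls and was listed at 0 in all 4 Ikzf1 libraries, leaving the transcript of 2460 bases at 100%. Shares of transcripts that share exons are estimates of the quantifier, and the low total of Cnn2 with Ikzf1 limits them further.

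Other genes of the same pathway, set by role in 7 lists with 168 different genes, some of them in more than one list, were tested with edgeR over all genes. Of 165 tested, 74 were called lower and 55 higher, 78.2% beside 59.4% of all genes, with a median log2 fold change of −0.08, against −0.52 for the 42. A decrease of at least 1 was called for 21 and an increase of at least 1 for 3. Of all tested genes, 30.0% were called lower and 29.4% higher, 6.42% lower by at least 1 and 4.89% higher by at least 1. These shares stand beside the counts of each list below. In these lists p-values are edgeR's, adjusted over all tested genes by Benjamini-Hochberg. The lists were set with earlier results of these data known, and the genes named were picked by their fold. Their p-values are therefore given only as labels and not as evidence.

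Adhesion adaptors and kinases held 20 genes called lower and 9 higher of 35 tested. Of these, 10 were lower by at least 1, beside 6.42% of all tested genes. Ajuba, a LIM protein of junctions and adhesions, fell from 159.8 ± 1.71 to 24.9 ± 1.45 CPM (SD, n = 4 each; edgeR adjusted p = 9.03e-26). Tgfb1i1, a paxillin relative, fell by 2.06 and Lpp, a zyxin relative, by 2.02 on the log2 scale. Pak1 and Limd1 rose by 0.52 and 0.51, and the scarce Lims2 by 0.68 on the log2 scale, with overlapping groups and no call in 7 of 14 alternative analyses. Among cofactors and targets of MRTF and SRF, 10 of 18 tested were called lower and 5 higher. Of the 10, 7 were lower by at least 1, beside 6.42% of all tested genes. Thbs1, which encodes thrombospondin, fell from 20.1 ± 2.07 to 2.15 ± 0.576 CPM and Ccn2, a matricellular protein, from 31.8 ± 2.67 to 4.24 ± 0.916 CPM (SD, n = 4 each; edgeR adjusted p = 1.16e-16 and 3.19e-17). The cofactor Mrtfb, the MRTF inhibitor Scai and Tuft1 rose by 0.35, 0.92 and 0.50 on the log2 scale.

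The membrane cortex list held 13 genes called lower and 8 higher of 22. Anxa1 and Anxa2, annexins that bind membranes in the presence of calcium, fell by 2.73 and 0.99 and S100a6 by 1.25 on the log2 scale, while Cttnbp2, Add3 and Slc9a3r1 rose by 0.71, 0.51 and 0.46. Of 32 crosslinkers and bundlers, 15 were called lower, with Pdlim4, Pls3 and Pdlim3 falling by 1.19, 1.14 and 0.95, and 7 higher, with Synpo2, Marcksl1 and Actn2 rising by 0.73, 0.51 and 0.48 on the log2 scale, Actn2 with overlapping groups. With an offset for transcript length, 5 rather than 8 of the cortex genes were called higher, and Cttnbp2 and Actn2 were no longer called.

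Filament nucleation and turnover had no common direction. Of 28 nucleation genes, 11 were called lower and 10 higher. Cyfip1, of the WAVE complex, fell from 125.7 ± 5.30 to 34.8 ± 2.96 CPM (SD, n = 4 each; edgeR adjusted p = 2.67e-21), the formins Inf2 and Fhod1 fell by 1.72 and 0.70, and the formins Fhod3, Fmnl3 and Diaph2 rose by 0.90, 0.72 and 0.56 on the log2 scale. Of 21 turnover genes tested, 5 were called lower, with Limk2, Wdr1 and Tmsb10 falling by 0.42, 0.39 and 0.18, and 10 higher, with Gsn, Cap2 and Ssh3 rising by 1.52, 1.04 and 0.61 on the log2 scale, Ssh3 with overlapping groups. Beside the low Lmna, the other 14 genes of the nuclear lamina and its link to the cytoskeleton held 4 called lower and 7 higher. Zmpste24, which processes prelamin A, fell by 0.38, Lmnb2, a B-type lamin, by 0.31 and Emd, emerin, by 0.23, while Syne1 and Syne2, which link the envelope to the cytoskeleton, rose by 1.00 and 0.40 and Lemd3 by 0.42 on the log2 scale.

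**Figure D5:**
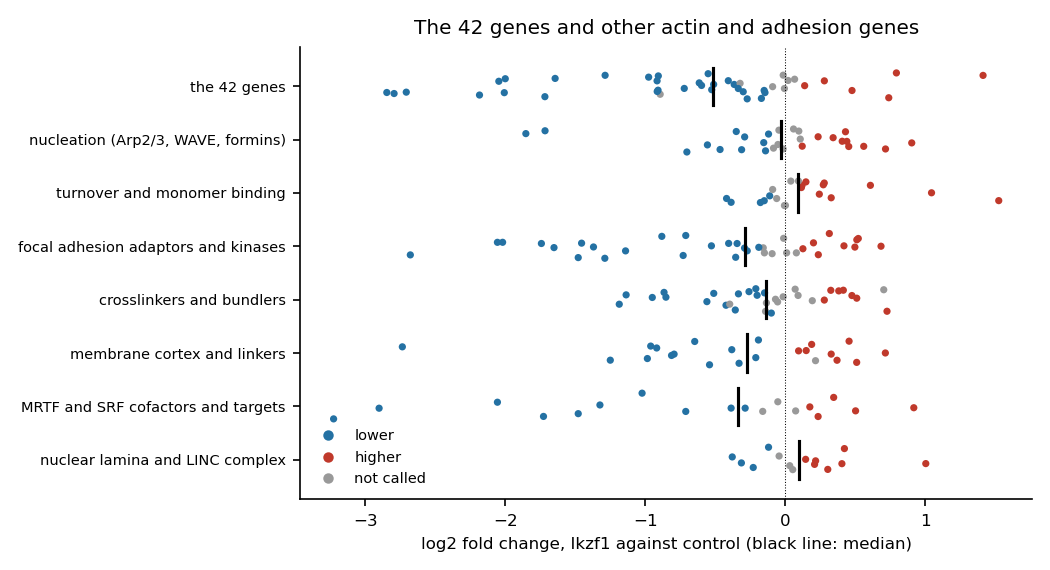
Log2 fold change of each tested gene in the 42 and in the 7 role lists, with the median as a black line and colours for the call. The list for MRTF and SRF reaches furthest below 0, to −3.23, and the turnover and lamina lists have medians of 0.09 and 0.10.

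Markers of other cells that express contractile genes were measured in the same libraries. The pericyte and smooth muscle list (7 of 10 tested, 3 called lower) summed to 24.8 to 28.8 CPM in the controls and 19.9 to 24.1 CPM with Ikzf1, mostly from Notch3 at 20.3 CPM in the controls. Cspg4, at 0.828 CPM in the controls and 0.309 CPM with Ikzf1, and Anpep, at 1.03 and 0.443 CPM, were called lower, as was Notch3. Pdgfrb, Abcc9, Des and Myh11 were not called. Rgs5, which was not tested, stood at 0.634 and 0.143 CPM, and Higd1b was listed at 0. The endothelial list (6 of 10 tested, 3 called lower) summed to 509 to 577 CPM and 226 to 269 CPM, carried by Kdr, at 436 and 215 CPM, and Flt1, at 102 and 19.1 CPM. Tek, the remaining gene called lower, stood at 0.786 and 0.345 CPM. Pecam1, at 3.04 and 2.90 CPM, was not called, and neither were Cldn5 and Esam. Cdh5 and Emcn had means of 1.78 and 0.537 normalised counts in the authors' deposited table. The fibroblast list (5 of 8 tested, 2 called lower and 1 higher) summed to 61.9 to 69.2 CPM and 38.8 to 41.6 CPM. Col1a1, at 19.6 and 4.54 CPM, and Col6a1, at 37.8 and 24.4 CPM, were called lower. Col1a2, at 2.1 and 3.82 CPM, was called higher, and Pdgfra and Fbln1 were not called. The microglia (0 of 3 tested called), astrocyte (1 of 3 lower), pigment epithelium (1 of 4 lower) and lens (0 of 1 called) lists summed to at most 4.62, 4.64, 19.8 and 1.14 CPM in any library, with Rpe65, Crygs and Lim2 listed at 0, and the erythrocyte genes all had means under 5 normalised counts. Vcl alone stood at 244 ± 16.3 CPM and Flna at 1099 ± 37.4 CPM in the controls (SD, n = 4 each). CPM is not scaled to length, so levels of different genes set side by side do not give the amount of a cell type. The part of such cells in the differences was not tested.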

How the data were processed

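RNA was measured in 8 libraries. The authors quantified transcripts with salmon, per the labels, giving estimated counts and TPM, per the file headers; version, index and strand option are not given in the sources used here. The authors' deposited DESeq2 table gave the mean signal per gene (normalised counts), log2 fold changes and adjusted p-values. The transcript files name no genes, so neighbouring transcripts were joined to a gene when their summed counts returned its deposited mean within a relative tolerance of 5e-09. Among the 16815 genes whose mean reached 5, 16628 were joined (98.89%), with 99.8 to 99.84% of the reads; 79 chance matches (0.47%) arose when the means were moved. Gene sums were rounded, filtered with filterByExpr, scaled by TMM and compared with edgeR 4.0.16 (quasi-likelihood, robust, two-sided, Benjamini-Hochberg, threshold 0.05), with the SE taken as fold size (log2) over the root of F. The fit was tested on simulated data. With the length offset, edgeR's fold changes and those of the authors' deposited table correlated at r = 0.9981 (11894 genes with a mean of at least 100). The deposited table gives all 42 genes the same sign but puts 32 of them past 0.05 (27 lower, 5 higher). Cnn1, Srf and Tpm4 are not past it there. Genes of the 42, and the role and marker lists, were chosen with earlier results of these data known. Of each role list, the 3 called genes of largest fold in each direction are named. Gene positions are those of the authors' deposited table and overlapped RefSeq GRCm38.p6 for 42 of 42 genes. Of 10 genes that overlap another gene, the 5 whose neighbour holds at least 10% of their signal are named. CUT&RUN peak lists (mm9) were not used here. DESeq2 1.42.0 was an alternative. A list of genes planned beside these is not reported here.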

Additional observations from a re-analysis of the deposited data

Results flagged for a closer look

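Of 84 groups of 4 libraries (42 genes in each group), 5 held a library whose gap to the nearest other was large for the group's range (Dixon's test, 95%); chance alone gives about 1 in 20 groups. Vcl in control replicate 1 was at 220 CPM, below 251 to 254 CPM in the other controls and far above every Ikzf1 library. Lmna in Ikzf1 replicate 4 was at 72.3 CPM, below 79.6 to 79.9 CPM in the others. Ahnak in Ikzf1 replicate 3 was at 195 CPM, above 165 to 169 CPM. Myl12a in Ikzf1 replicate 4 was at 82.2 CPM, below 93.3 to 94.6 CPM, and Acta2 in Ikzf1 replicate 2 was at 0.831 CPM, above 0.317 to 0.398 CPM. In each case but Acta2, whose groups overlap, the library in question stayed on its own group's side.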

How the results depend on the processing

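Across 14 alternative analyses of the contrast, 28 to 30 of the 42 genes were called lower and 5 or 6 higher. Leaving out 1 library at a time gave 8661 to 9052 called genes in all, against 9254 with every library, and the other alternatives gave 7882 (transcript length offset) to 9320 (no filter on low counts). An offset for transcript length also moved 1 count by more than 1.5 times: 5 membrane cortex genes were called higher in place of 8. The cause was not tested. With it Cnn2 stood at −3.196 and Pdlim7 at −1.46 on the log2 scale. Flna, at −0.92 in the main fit, passed a decrease of 1 with the offset (−1.03) and in the authors' deposited table (−1.02). Under that offset Tpm4 (0.14), Srf (−0.07), Cnn1 (−0.61), Lims2 (0.25), Actn2 (0.45) and Cttnbp2 (0.36) lost their call. Tpm4 also lost it without control replicate 1 (0.11), Ikzf1 replicate 2 (0.11) or 3 (0.12), and Srf without control replicate 3 (−0.14) or 4 (−0.13) or Ikzf1 replicate 1 (−0.10) or 3 (−0.14). Acta2 gained a call under the offset (−1.05) and without control replicate 3 (−1.12) or Ikzf1 replicate 2 (−1.29), Tagln without Ikzf1 replicate 4 (−0.50) and Tagln2 without control replicate 3 (−0.12). Lims2 lost its call under the replicate block and without any 1 of 5 libraries, at 0.52 to 0.67 (control replicates 1 and 3, Ikzf1 replicates 2, 3 and 4), and Actn2 without Ikzf1 replicate 1 (0.41) or 2 (0.37). The other 38 of 41 list genes named stayed called in every alternative. Actb and Lima1, neither called in any, took both signs. All other genes of the 42 kept their direction. Only counting the bases before the start left the CArG box in 8 genes and the Ikaros core in 8 in place of 11.

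Same-numbered libraries of the groups did not deviate together (correlations of −0.0454 to 0.00462), so the numbers do not pair them; a replicate block gave 8924 called genes, with 29 of the 42 lower and 6 higher. Depth limits Acta2, with 8 to 32 reads in a library, and Cnn1, with 14 to 60.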
